A study of Mus musculus with 31 samples.

Results

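Crypt stem cell and Wnt target genes were followed in the distal colon of mice in a chemical model of colorectal cancer, before tumours are seen. The mice did or did not receive E171, the food additive form of titanium dioxide. The set held 10 genes, found by the gene name that the array design gives to each probe. Lgr5, Ascl2 and Smoc2 mark stem cells at the crypt base. Axin2 and Nkd1 are feedback inhibitors of Wnt signalling, Ephb2 and Ephb3 are receptors that position cells along the crypt, and Sox9, Cd44 and Myc are further genes that Wnt signalling turns on. All 10 were among the 19797 genes tested, named by 20 of the 42787 probes kept, and each of the 20 passed the filter on dim probes.

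RNA of 31 BALB/c mice, a few weeks old at the start, was hybridised to 31 one-colour microarrays, 1 mouse per array. Every mouse, controls included, received a single injection of azoxymethane, a colon carcinogen, a week before the start. Each also received dextran sodium sulphate, which injures the colon lining and causes colitis, in its drinking water for the first 5 days only. Mice of 2 days were thus killed while it was given and those of 7, 14 and 21 days after it had ended. The CRC group received water by gavage and the CRC + E171 group received 5 mg of E171 per kg of body weight a day in water by gavage, and mice were killed after 2, 7, 14 or 21 days. Each of the 8 groups held 2 males and 2 females, except CRC after 21 days with 1 male and 2 females. Mice without azoxymethane and dextran sodium sulphate were not analysed here, so each comparison is between E171 and no E171, between days or between sexes within this model.

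The colon epithelium is renewed from stem cells at the base of each crypt. Wnt ligands from the surrounding stroma stabilise beta-catenin in these cells, which then acts with Tcf and Lef factors to turn on Lgr5, Ascl2, Axin2 and the other target genes. Axin2 and Nkd1 act back on the pathway and dampen it. In mice given azoxymethane and dextran sodium sulphate, tumours of the distal colon commonly carry activated beta-catenin, and injury by dextran sodium sulphate first depletes and then regenerates the crypts. RNA came from a whole piece of colon, so fewer cells of a type and less RNA per cell cannot be told apart.

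The probes behind the results are shown here to place each measurement in the genome. Positions are those of the array annotation, on mouse build mm9. Exon and untranslated region positions on that build were not used here. The first Lgr5 probe lies on the minus strand at chr10:114899782-114899841 and is printed in full, and the second, at chr10:114887403-114887462 on the same strand, by its first 30 of 60 bases. Both carried the sex difference described further on.
Lgr5 probe 1: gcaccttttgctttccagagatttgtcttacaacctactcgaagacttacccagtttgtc
Lgr5 probe 2: catgtaaatacgtagtgcttgtaaatagat

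The 2 probes named Ascl2 lie 23904 bases apart on the minus strand, the brighter at chr7:150152734-150152793 and the dimmer at chr7:150176638-150176697. They are shown because they gave different answers: their values correlated with r = 0.19 over the 31 arrays. Whether both measure Ascl2 was not tested, and Ascl2 levels below are the mean of both. The first 30 bases of each follow.
Ascl2 brighter probe: ggccagtgtgggaaccctgctgttgcaaag
Ascl2 dimmer probe: tgtagccactgctcatgttcctggaaacac

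Sox9 and Smoc2 carried the E171 difference after 7 days. The Sox9 probes lie on the plus strand at chr11:112646642-112646701, printed in full, and chr11:112647560-112647619, of which the first 30 bases are given. The 3 Smoc2 probes lie on the plus strand at chr17:14463077-14463136, chr17:14540516-14540575 and chr17:14541664-14541723, and the first 30 bases of each are given in that order.
Sox9 probe 1: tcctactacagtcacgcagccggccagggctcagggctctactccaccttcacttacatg
Sox9 probe 2: ttggggggtgagctttgattaattccccag
Smoc2 probe 1: tacaaattgtctgactccctcagtgtttca
Smoc2 probe 2: atgaacggctgactactcaagacagttcct
Smoc2 probe 3: gctcatgtcaatgctgtctacaaacgagta

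The probe named Ephb3, the only 1 for this gene, lies on the plus strand at chr16:21223165-21223224 and holds an unbroken run of 33 bases of alternating T and G. Bases 13 to 42 are shown, with the part of the run they cover in capitals.
Ephb3 probe: cagagagccagagacTGTGTGTGTGTGTGT
Over the 31 arrays its values correlated with those of 36 kept probes of other genes that hold a TG run of 24 bases or more, with a median r of 0.92 and a range of 0.40 to 0.96. Of these 36 probes, 35 had r above 0.8, against 0.2% of 42540 probes of all kinds, whose median r was 0.03. Values are given as those of the Ephb3 probe, and whether they measure Ephb3 RNA was not tested.

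Levels are log2 signals relative to the 75th percentile of the same array, so that 0 is the level of that percentile. Between 67.4% and 78.9% of spots were well above background on each array. Precision is limited by how many arrays a group has. Both CRC males after 7 days stood apart from all other arrays, with a median correlation to the others of 0.83 and 0.89, against 0.919 to 0.974 for the remaining 29. In these 2 arrays the median of 12 pan-epithelial markers was −3.68 and −1.38 relative to the mean of all arrays on the log2 scale, while the other 29 lay between −0.40 and 0.67. The median of 9 neutrophil markers was 4.22 and 5.38, against −1.56 to 2.63. Male 1 also carried skeletal muscle markers (6.91, against −1.10 to 1.98 on the other 29 arrays) and squamous epithelium markers (6.60, against −1.14 to 5.01). Male 2 carried pancreatic acinar markers at 8.08, within the −3.22 to 9.93 of the other arrays. 1 array labelled male, CRC after 14 days male 2, had an Xist level of −1.60, within the −2.34 to −0.70 of the females and outside the −8.51 to −6.53 of the other 14 males. The main results of 7 days are given with and without both CRC males. Arrays of CRC and CRC + E171 of the same day never shared a slide, whereas males and females of a group did, except CRC female 2 of 21 days, whose slide held no male of its group.

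**Figure D1:**
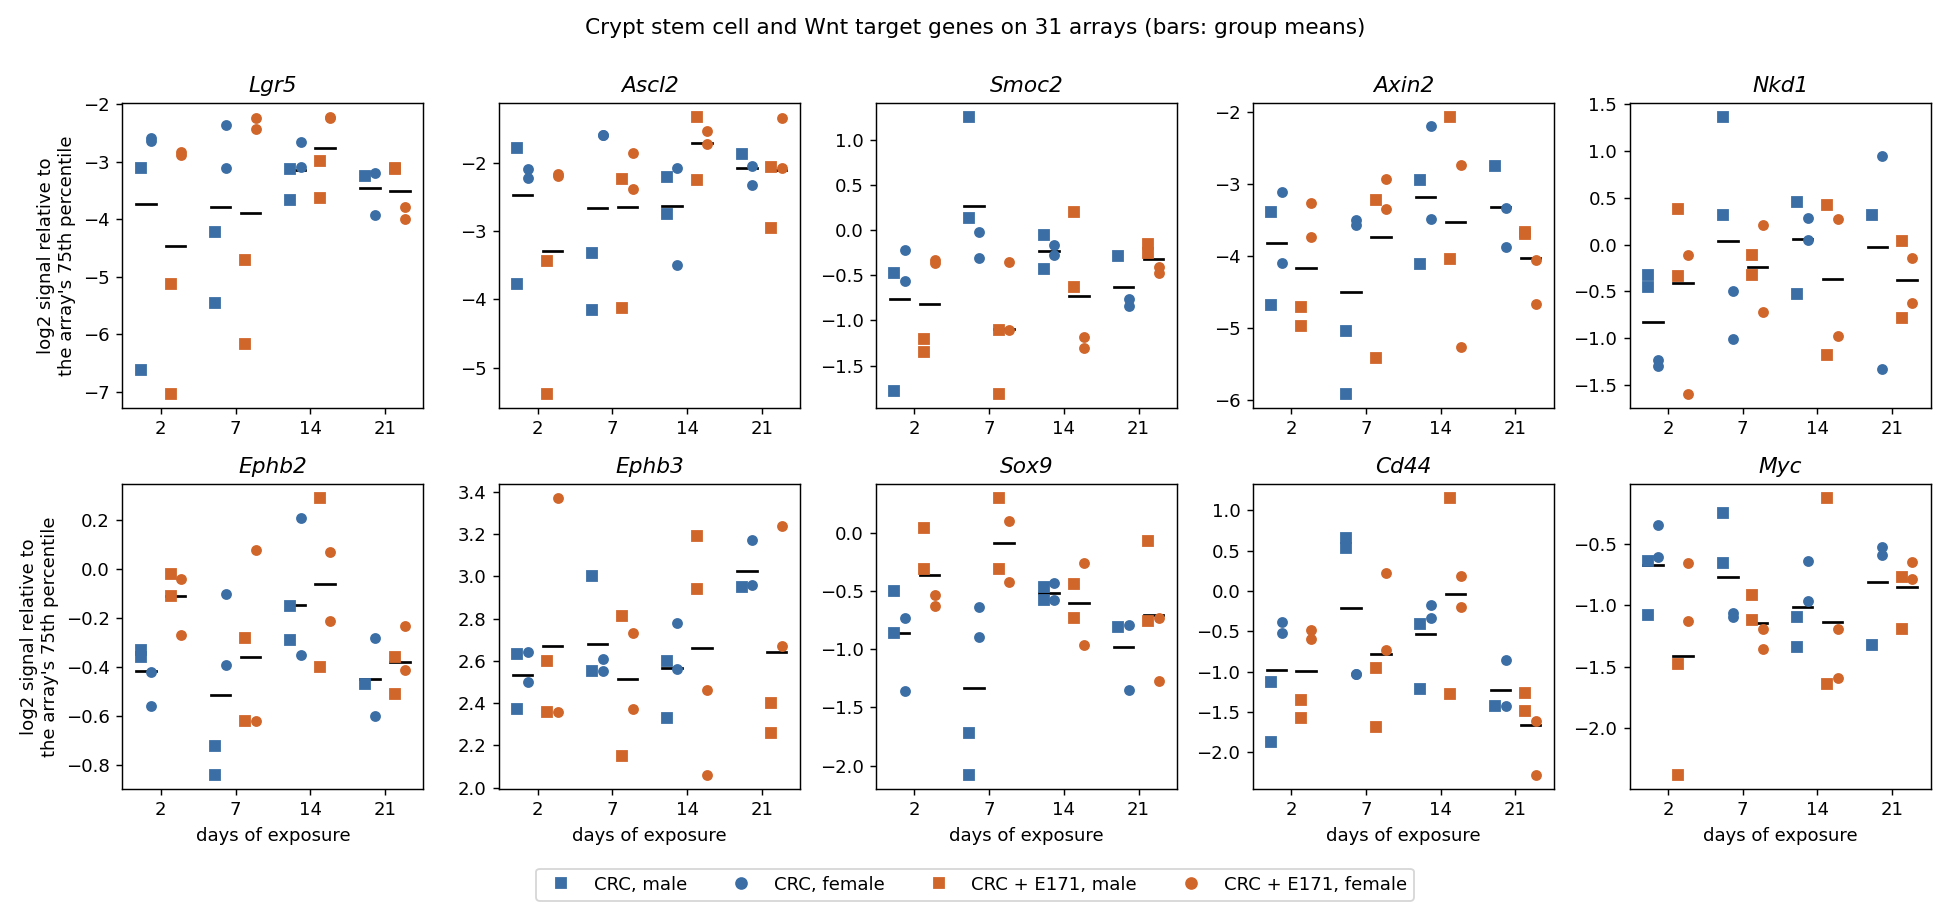
Log2 signal of each of the 10 genes relative to the array's 75th percentile, by days of exposure, in CRC (blue) and CRC + E171 (orange), with males as squares, females as circles and group means as bars. Lgr5 ranges from −7.03 to −2.22 with its low points among males after 2 and 7 days, while Ephb2 stays between −0.84 and 0.29.

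Of the stem cell genes, Lgr5, a receptor for R-spondins that amplifies Wnt signals, varied most between arrays, from −7.03 to −2.22 with a median of −3.12. Its group means in CRC were −3.74 ± 1.94 after 2 days, −3.79 ± 1.35 after 7, −3.14 ± 0.41 after 14 and −3.46 ± 0.41 after 21 days (SD, n = 4, and 3 for CRC after 21 days, here and for each gene). In CRC + E171 they were −4.47 ± 2.02, −3.88 ± 1.89, −2.76 ± 0.67 and −3.50 ± 0.45. From lowest to highest, the mean in CRC + E171 after 2 days was followed by both 7 day groups, CRC after 2 days, both 21 day groups and both 14 day groups, and each step was smaller than the SD within the groups. The SD within groups, pooled over the 8 groups, was 1.33, larger than that of 95.7% of all genes (median 0.44).

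Ascl2, the transcription factor that sets stem cell identity in the crypt, had a pooled SD of 0.92 and ran from −5.38 to −1.33. Its CRC means were −2.47 ± 0.89, −2.67 ± 1.28, −2.64 ± 0.65 and −2.08 ± 0.24 after 2, 7, 14 and 21 days, and its CRC + E171 means −3.30 ± 1.51, −2.65 ± 1.01, −1.71 ± 0.39 and −2.10 ± 0.66. The lowest group was CRC + E171 after 2 days and the highest CRC + E171 after 14 days. Smoc2, a secreted matrix protein of crypt base cells that stromal cells also make, ran from −1.81 to 1.25. Its CRC means were −0.76 ± 0.69, 0.26 ± 0.68, −0.23 ± 0.16 and −0.63 ± 0.30, and its CRC + E171 means −0.81 ± 0.54, −1.09 ± 0.60, −0.73 ± 0.68 and −0.32 ± 0.15. Both the highest and the lowest Smoc2 group were those of 7 days, and the means of the other 6 lay between −0.81 and −0.23.

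Axin2, a scaffold of the beta-catenin destruction complex, ran from −5.91 to −2.07 with a pooled SD of 0.94. Its CRC means were −3.82 ± 0.71, −4.50 ± 1.18, −3.18 ± 0.82 and −3.32 ± 0.56, and its CRC + E171 means −4.17 ± 0.80, −3.73 ± 1.14, −3.52 ± 1.42 and −4.02 ± 0.47. Nkd1, which binds Dishevelled and limits the Wnt signal, ran from −1.59 to 1.36, with CRC means of −0.82 ± 0.51, 0.04 ± 1.04, 0.06 ± 0.43 and −0.03 ± 1.17 and CRC + E171 means of −0.41 ± 0.84, −0.24 ± 0.39, −0.36 ± 0.83 and −0.37 ± 0.39. Both had wide spreads in most groups.

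Ephb2, an Eph receptor that is graded from the crypt base upwards, ran only from −0.84 to 0.29, with a pooled SD of 0.24 that was above that of 15.9% of genes. Its CRC means were −0.42 ± 0.10, −0.51 ± 0.34, −0.15 ± 0.25 and −0.45 ± 0.16, and its CRC + E171 means −0.11 ± 0.12, −0.36 ± 0.33, −0.06 ± 0.30 and −0.38 ± 0.12. The Ephb3 probe lay between 2.06 and 3.37 on all 31 arrays, with group means from 2.51 ± 0.31 to 3.03 ± 0.13.

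Sox9, a transcription factor of crypt base and progenitor cells, ran from −2.08 to 0.30. Its CRC means were −0.86 ± 0.36, −1.33 ± 0.68, −0.51 ± 0.08 and −0.98 ± 0.31, and its CRC + E171 means −0.36 ± 0.30, −0.08 ± 0.34, −0.60 ± 0.31 and −0.71 ± 0.49. As with Smoc2, both ends of the order were the 7 day groups. Cd44, a hyaluronan receptor of crypt cells and of most leukocytes, ran from −2.28 to 1.15, with CRC means of −0.98 ± 0.68, −0.22 ± 0.94, −0.53 ± 0.47 and −1.23 ± 0.33 and CRC + E171 means of −1.0 ± 0.54, −0.79 ± 0.79, −0.03 ± 1.01 and −1.66 ± 0.44. Myc, which drives growth and ribosome production, ran from −2.38 to −0.13, with CRC means of −0.67 ± 0.30, −0.77 ± 0.40, −1.01 ± 0.29 and −0.82 ± 0.44 and CRC + E171 means of −1.41 ± 0.72, −1.15 ± 0.18, −1.14 ± 0.70 and −0.85 ± 0.24. In each of the 10 genes, any 2 groups next to each other in the order of means overlapped.

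The comparison of CRC + E171 with CRC on each day asked whether E171 shifted these genes in the weeks before tumours are seen in this model. After 7 days Sox9 was higher and Smoc2 lower in CRC + E171, after 2 days Myc was lower, and after 14 and 21 days no member passed. A gene was called by a linear fold of at least 1.5 and an unadjusted p under 0.05, named the unadjusted thresholds in what follows. The methods of the study write the fold threshold on the log2 scale instead. With a log2 difference of 1.5 in place of that fold, a reading added after the data were seen, no member was called on any day, where 0.293%, 3.33%, 1.71% and 0.349% of genes were after 2, 7, 14 and 21 days. With p adjusted over all genes (limma, Benjamini-Hochberg), no member passed on any day, and neither did any other gene. Members called were 1 after 2 days, where 1.72% of all genes were called, 2 after 7 days against 12.4%, 0 after 14 days against 6.34% and 0 after 21 days against 2.67%. With 10 members, counts of 0 to 2 do not set the genes apart from the rest of the array. Over the 10 genes the median log2 difference was −0.04, −0.13, 0.00 and −0.04 after 2, 7, 14 and 21 days, beside 0.06, −0.01, 0.01 and 0.02 over all genes.

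**Figure D2:**
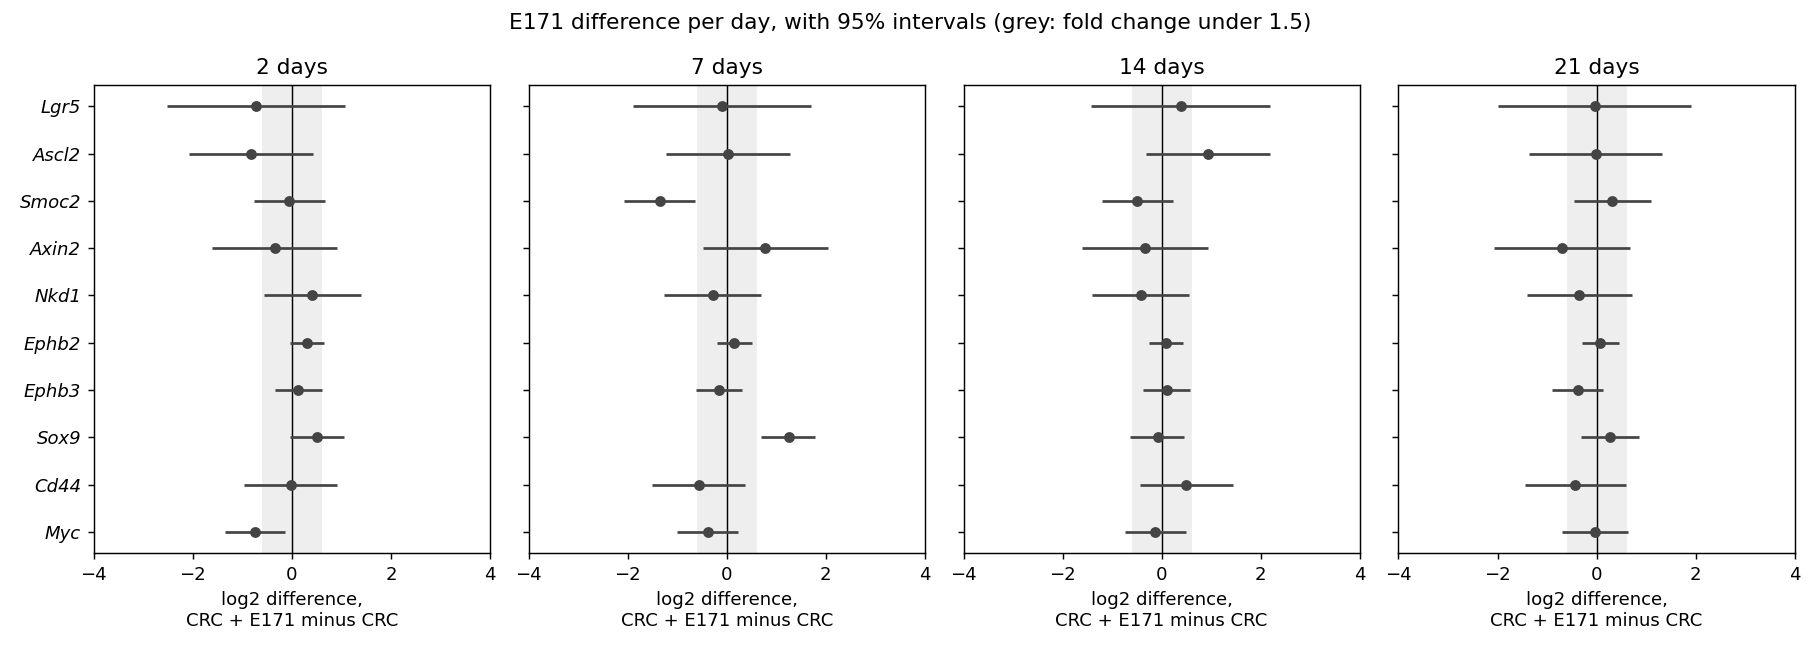
Log2 difference of CRC + E171 minus CRC for each of the 10 genes after 2, 7, 14 and 21 days, with 95% intervals from the limma fit and a grey band for folds under 1.5. Sox9 (1.25) and Smoc2 (−1.35) after 7 days and Myc (−0.75) after 2 days lie outside the band with intervals that leave out 0.

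Sox9 levels after 7 days were −1.72 and −2.08 in CRC males, −0.89 and −0.64 in CRC females, −0.31 and 0.30 in CRC + E171 males and −0.42 and 0.10 in CRC + E171 females. All 4 arrays with E171 lay above all 4 without, and both CRC males were the lowest of the 31 arrays. Sox9 was 2.38-fold higher, a log2 difference of 1.25 with SE 0.28 and a 95% interval of 0.70 to 1.79 (limma, unadjusted p = 0.000138, adjusted p = 0.197). The exact permutation test gave p = 0.0286, the smallest that 4 against 4 arrays allow (two-sided). Both probes were higher, by 0.85 for probe 1 (unadjusted p = 0.0101) and 1.65 for probe 2 (unadjusted p = 3.94e-05). Within scan day 1, with 2 arrays a group, the difference was 0.94.

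Smoc2 levels after 7 days were 1.25 and 0.13 in CRC males, −0.02 and −0.31 in CRC females, −1.10 and −1.81 in CRC + E171 males and −0.35 and −1.11 in CRC + E171 females. The groups did not overlap, although the lowest CRC array (−0.31) and the highest CRC + E171 array (−0.35) lay next to each other. Smoc2 was 2.55-fold lower, a log2 difference of −1.35 with SE 0.37 and a 95% interval of −2.07 to −0.64 (limma, unadjusted p = 0.00107, adjusted p = 0.197; exact permutation p = 0.0286). Its 3 probes gave −0.80, −1.64 and −1.62 in the order shown above, and the value within scan day 1 was −1.34. In all, 2 of 10 members did not overlap after 7 days, where 4.85% of genes did not, and 1 of 10 after 2 days, where 3.91% did not. Of the members, none was free of overlap after 14 or 21 days, against 5.90% and 8.02% of genes.

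The CRC males of 7 days, with their low epithelial and high neutrophil markers, bear on both genes. Without both, Sox9 differed by 0.68 (unadjusted p = 0.0250) and Smoc2 by −0.93 (unadjusted p = 0.0355), with adjusted p = 1 for both. Between females alone the differences were 0.60 for Sox9 (SE 0.33, unadjusted p = 0.0837) and −0.57 for Smoc2 (SE 0.40, unadjusted p = 0.179), where 2.01% of all genes were called. Between males alone they were 1.90 (SE 0.33, adjusted p = 0.00113) and −2.14 (SE 0.40, adjusted p = 0.00209), where 27.2% of genes were called and 15.3% had an adjusted p under 0.05. These splits were chosen after the values were seen. Leaving out 1 array at a time kept both calls, with Sox9 between 1.0 and 1.48 and Smoc2 between −1.6 and −1.03. Without CRC female 1 of 7 days, the adjusted p of Sox9 was 0.0252 and that of Smoc2 0.0373, and without CRC female 2 they were 0.0436 and 0.0445. Without CRC + E171 male 2 of 7 days, Axin2 was called as well, at 1.34 (unadjusted p = 0.0492).

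Cd44 was not called over all arrays after 7 days (−0.57, unadjusted p = 0.246), yet its levels split by sex. They were 0.66 and 0.53 in CRC males, −1.03 and −1.03 in CRC females, −1.69 and −0.95 in CRC + E171 males and −0.73 and 0.22 in CRC + E171 females. With E171, males were lower (−1.91, SE 0.54, adjusted p = 0.0248) and the difference between females was 0.78 (unadjusted p = 0.171). The E171 difference of males minus that of females was −2.69 (unadjusted p = 0.00272, adjusted p = 0.0613), where 3.71% of genes had an adjusted p under 0.05. The same contrast gave 1.30 for Sox9 (unadjusted p = 0.0122, adjusted p = 0.134) and −1.57 for Smoc2 (unadjusted p = 0.0135, adjusted p = 0.140). The 2 CRC males that stood apart enter all 3 values. In CRC + E171 alone, the male minus female difference was −1.07 for Cd44, 0.16 for Sox9 and −0.73 for Smoc2.

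**Figure D3:**
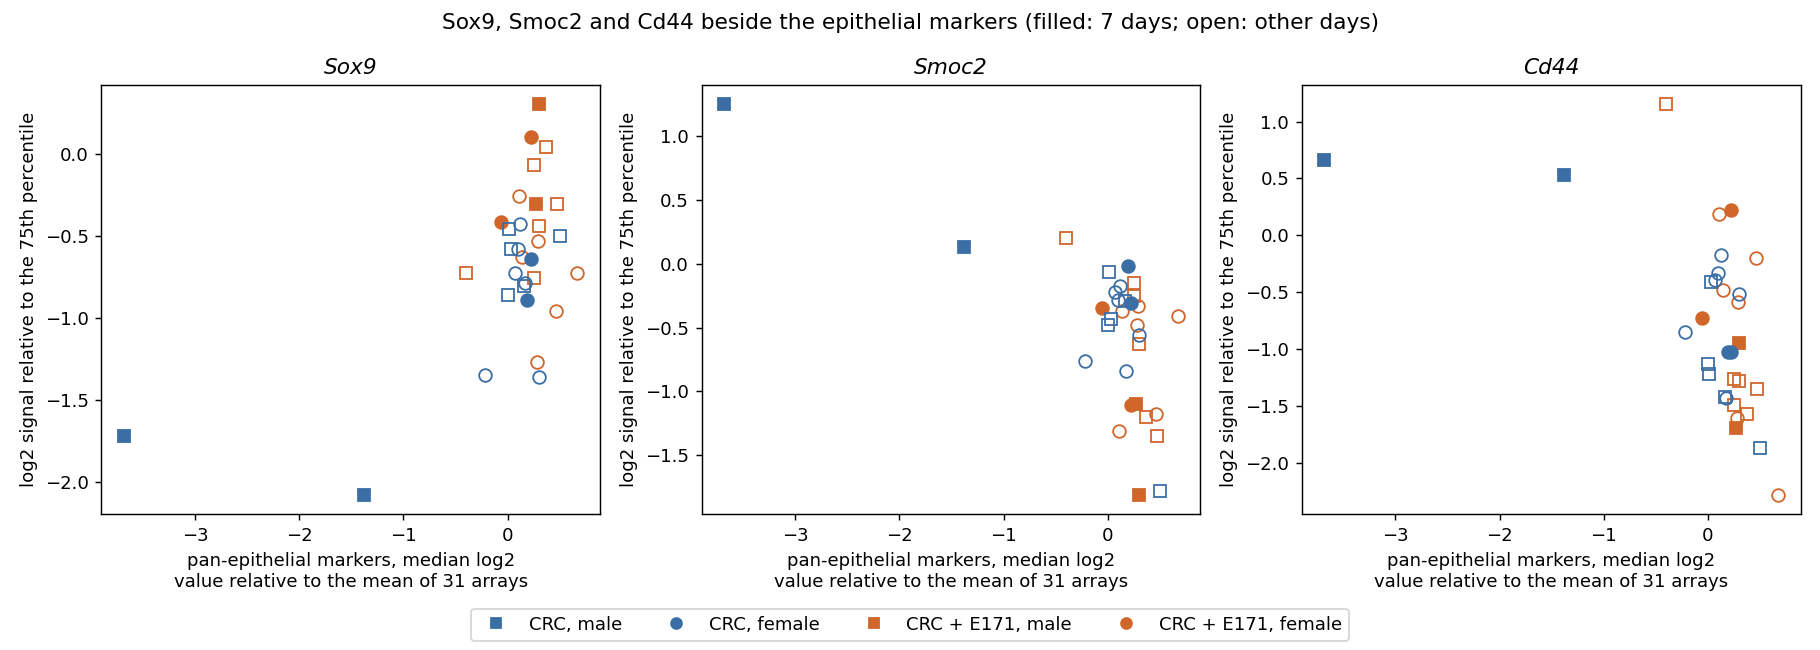
Levels of Sox9, Smoc2 and Cd44 (y axis, log2 relative to the array's 75th percentile) against the median of the pan-epithelial markers relative to the mean of the 31 arrays (x axis, log2), with arrays of 7 days filled. The CRC males of 7 days sit far to the left, at −3.68 and −1.38, with low Sox9 and high Smoc2 and Cd44.

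Over the 31 arrays, given as a description of arrays that share groups and slides, Sox9 correlated with the pan-epithelial median at r = 0.57 and with the neutrophil median at −0.56. Smoc2 gave −0.66 and 0.50, and Cd44 gave −0.56 and 0.64. Nkd1 followed stromal markers, with r = 0.82 for smooth muscle markers and 0.81 for fibroblast markers, whereas Lgr5 stood at 0.08 with the epithelial and 0.44 with the proliferation markers. The part of cell mixture in the E171 differences was not tested beyond these values and the fits without the CRC males.

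Myc levels after 2 days were −1.08 and −0.64 in CRC males, −0.35 and −0.61 in CRC females, −1.48 and −2.38 in CRC + E171 males and −1.13 and −0.66 in CRC + E171 females. The groups overlapped. Myc was 1.68-fold lower with E171, by −0.75 on the log2 scale with SE 0.31 and a 95% interval of −1.36 to −0.13 (limma, unadjusted p = 0.0255, adjusted p = 0.999; exact permutation p = 0.0571). Its probes gave −0.82 and −0.68, and the value within scan day 2 was −0.68. With scan day as a block the difference was −0.72 (unadjusted p = 0.0519) and with only the compared arrays −0.75 (unadjusted p = 0.0668), so both ended the call. Leaving out CRC + E171 male 2 reduced the difference to −0.43 (unadjusted p = 0.169), and leaving out CRC female 1 gave −0.64 (unadjusted p = 0.0735). Without CRC male 1, Sox9 was called too, at 0.62 (unadjusted p = 0.048).

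Ephb2 after 2 days was the other gene without overlap. It lay at −0.33, −0.36, −0.56 and −0.42 in CRC and at −0.02, −0.11, −0.27 and −0.04 in CRC + E171 (exact permutation p = 0.0286). The difference was small, 0.31 with SE 0.18 (limma, unadjusted p = 0.0961), and came from 1 of its 2 probes, which gave 0.59 against 0.02 for the other. Sox9 after 2 days differed by 0.50 (unadjusted p = 0.0827), and Lgr5 and Ascl2 by −0.73 (unadjusted p = 0.437) and −0.83 (unadjusted p = 0.206), with males spread widely in both.

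After 14 days the differences ran from −0.50 for Smoc2 (unadjusted p = 0.187) to 0.93 for Ascl2 (unadjusted p = 0.158, 95% interval −0.32 to 2.18). The Ascl2 value averages the brighter probe at 0.63 (unadjusted p = 0.523) and the dimmer at 1.23 (unadjusted p = 0.0351), and whether the dimmer measures Ascl2 was not tested. Smoc2 was called without CRC + E171 male 2 of 14 days, at −0.81 (unadjusted p = 0.0384). After 21 days they ran from −0.70 for Axin2 (unadjusted p = 0.326) to 0.31 for Smoc2, and the Ephb3 probe stood at −0.38 (unadjusted p = 0.153). As a mean over the 4 days, no member reached both thresholds, where 1.79% of genes did, and 0.00505% of genes, no member among them, had an adjusted p under 0.05 with that fold. At an unadjusted p under 0.05 there were 2, Sox9 at 0.49 (SE 0.14, 95% interval 0.21 to 0.76, unadjusted p = 0.00213, adjusted p = 0.496) and Smoc2 at −0.40 (unadjusted p = 0.0436). Over the mean of 7 and 21 days alone Sox9 was called at 0.76 (unadjusted p = 0.0010, adjusted p = 0.472), where 5.24% of genes were, and over the mean of 2 and 14 days none was, where 2.07% were. Whether the E171 difference differed between males and females, as a mean over the days, gave no member an unadjusted p under 0.05. Of 19795 genes tested 1054 had one, and 3.62% passed with a fold of 1.5 as well. An F test of whether the E171 difference changed with the day gave no member an adjusted p under 0.05 and 2 an unadjusted one, Sox9 (unadjusted p = 0.0175) and Smoc2 (unadjusted p = 0.0259), where 6.52% of genes had one.

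The comparison of days asked how the genes changed over these weeks, over both exposures. Dextran sodium sulphate had ended before 7 days, so days differ also in the time since it was given. In none of the 6 pairs of days did a member have an adjusted p under 0.05 with a fold of 1.5. All genes gave 0% for 7 against 2, 14 against 2 and 14 against 7 days, 0.278% for 21 against 2, 0.141% for 21 against 7 and 0.0758% for 21 against 14 days. At a fold of 1.5 and an unadjusted p under 0.05, 1 member, Cd44, was called in each of 14 against 2, 21 against 7 and 21 against 14 days, where 4.60%, 7.32% and 5.48% of genes were, and 0 in 7 against 2, 21 against 2 and 14 against 7 days, where 5.37%, 6.11% and 1.77% were. Cd44 came nearest to the adjusted threshold. Its level was lower after 21 than after 14 days, with means of −1.48 and −0.28, a difference of −1.16 with SE 0.35 and a 95% interval of −1.85 to −0.47 (limma, unadjusted p = 0.00285, adjusted p = 0.154; exact permutation p = 0.0028).

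After 14 days Cd44 stood at −0.41, −1.22, −0.33 and −0.17 in CRC and at −1.28, 1.15, −0.20 and 0.19 in CRC + E171. After 21 days it stood at −1.42, −0.85 and −1.43 in CRC and at −1.49, −1.26, −1.61 and −2.28 in CRC + E171. The days overlapped by CRC male 2 and CRC + E171 male 1 of 14 days. Its 3 probes gave differences of −1.38, −0.84 and −1.28, and leaving out 1 array at a time gave −1.37 to −0.97. Within a scan day the value in CRC was −0.73, from 1 array of 21 days against 2 of 14 days. The values in CRC + E171 were −0.81 and −2.45, from 2 arrays against 2. The neutrophil median moved with Cd44, from −0.56 to 0.91 in CRC and −0.72 to 2.63 in CRC + E171 after 14 days to −1.04 to −0.46 and −1.56 to −0.15 after 21 days. The highest array, CRC + E171 male 2 of 14 days, had the neutrophil median of 2.63 and a goblet median of −3.70, and without it the difference was −0.97. The part of neutrophils was not tested.

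Cd44 also differed by −0.94 between 21 and 7 days (unadjusted p = 0.0127, adjusted p = 0.226) and by 0.70 between 14 and 2 days (unadjusted p = 0.0478, adjusted p = 0.524). Without both CRC males of 7 days, the first was −0.54 (unadjusted p = 0.144). Ephb2 was 0.33 higher after 14 than after 7 days (unadjusted p = 0.0141, adjusted p = 0.999) and 0.31 lower after 21 than after 14 days, both under a fold of 1.5. From 2 to 14 days 9 of 10 members had a positive difference, with a median of 0.38 beside −0.02 over all genes. Within CRC, an F test over the 4 days gave no member an adjusted p under 0.05 and Smoc2 an unadjusted one (unadjusted p = 0.0473), where 9.89% of genes had one. Within CRC + E171 it likewise gave none adjusted and Cd44 one without adjustment (unadjusted p = 0.0198), where 14.6% of genes had one.

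The labels give the sex of each mouse, and 15 of the 16 females shared a slide with a male of their group, so sex could be compared within slides in 15 pairs. All 15 males lay in array row 1 and all 16 females in array row 2, so sex and array row cannot be told apart. Lgr5 was lower in males after 2 and 7 days and Ascl2 and Axin2 showed the same sign, whereas after 14 and 21 days no member passed. Splitting sex by day was chosen after the values were seen. The call here was an adjusted p under 0.05 with a fold of 1.5.

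After 2 days Lgr5 stood at −6.62 and −3.11 in CRC males, −5.12 and −7.03 in CRC + E171 males, −2.59 and −2.63 in CRC females and −2.83 and −2.88 in CRC + E171 females. All 4 males lay below all 4 females, and the females lay close together. The male mean was −5.47 ± 1.77 and the female mean −2.73 ± 0.14 (SD, n = 4). Lgr5 was lower in males by −2.74 on the log2 scale, with SE 0.57 and a 95% interval of −3.85 to −1.63 (limma, adjusted p = 0.0475; exact permutation p = 0.0286). It was the 1 member called, where 0.359% of all genes were. The call was lost with the replicate block (adjusted p = 0.0617), with the slide as a fixed block (adjusted p = 0.0604) and with the scan day as one (adjusted p = 0.0542), each with the difference at −2.74. It was lost also with the authors' values (−2.73, adjusted p = 0.0585) and without the filter on dim probes (adjusted p = 0.0555).

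After 7 days Lgr5 stood at −4.22 and −5.46 in CRC males, −4.71 and −6.16 in CRC + E171 males, −2.36 and −3.11 in CRC females and −2.43 and −2.23 in CRC + E171 females. Again no male reached the lowest female. The means were −5.14 ± 0.85 in males and −2.53 ± 0.39 in females (SD, n = 4), a difference of −2.61 with SE 0.57 and a 95% interval of −3.72 to −1.49 (limma, adjusted p = 0.0159). It was the 1 member called, where 4.67% of genes were. Members whose sexes did not overlap were 2 after 2 days, Lgr5 and Cd44, against 14.2% of genes, 1 after 7 days, Lgr5, against 3.48%, 0 after 14 days, against 0.864%, and 1 after 21 days, Smoc2, against 8.11%.

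**Figure D4:**
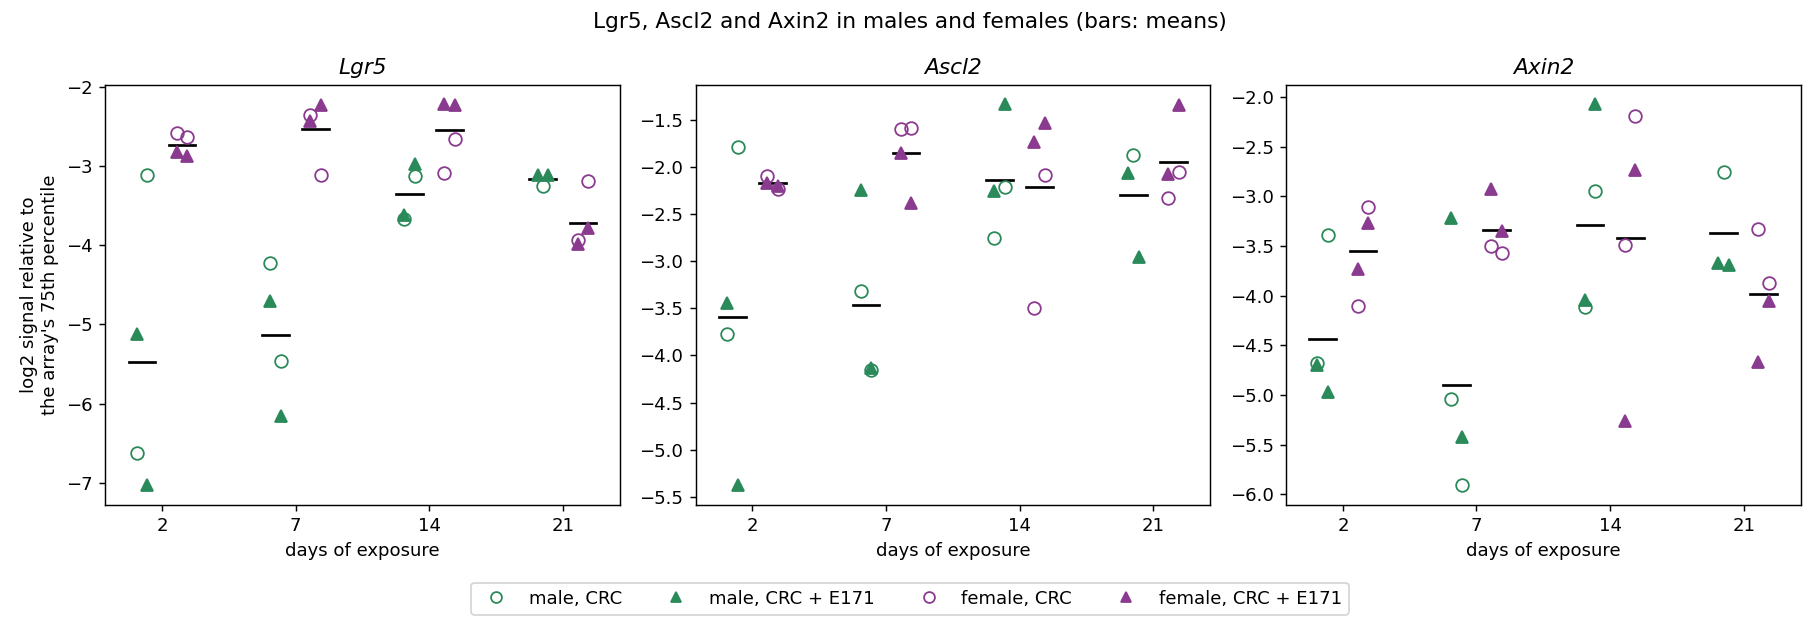
Levels of Lgr5, Ascl2 and Axin2 (log2 relative to the array's 75th percentile) by day in males (green) and females (purple), with CRC as open circles, CRC + E171 as triangles and means as bars. Lgr5 males lie below Lgr5 females after 2 and 7 days, and the sexes overlap after 14 and 21 days.

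After 14 days Lgr5 stood at −3.67, −3.13, −3.62 and −2.98 in males and at −3.09, −2.66, −2.22 and −2.23 in females, a difference of −0.80 (unadjusted p = 0.177). The array at −3.13, CRC male 2, is the 1 whose Xist level lay within the females, and without it the difference was −0.93 (unadjusted p = 0.170). After 21 days it stood at −3.25, −3.12 and −3.11 in males and −3.93, −3.19, −3.99 and −3.78 in females, a difference of 0.54 (unadjusted p = 0.405). An F test of whether the sex difference changed with the day gave unadjusted p = 0.00314 and adjusted p = 0.141 for Lgr5. No member passed adjusted, where 0.141% of genes did, and 4 members, Lgr5, Smoc2, Myc and Sox9, had an unadjusted p under 0.05, where 15.4% of genes did. Within slides the male was below the female in 8 of 8 pairs after 2 and 7 days (−4.15 to −0.48), in 4 of 4 after 14 days, that array counted as male, and in 0 of 3 after 21 days. Over all days the difference was −1.40 with SE 0.29 (adjusted p = 0.0799), so no member was called, where 0.141% of genes were, and at a fold of 1.5 and an unadjusted p under 0.05 there were 2, Lgr5 and Ascl2, where 3.29% of genes were.

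Both Lgr5 probes shared the difference, with −2.08 for probe 1 and −3.40 for probe 2 after 2 days and −2.56 and −2.65 after 7 days. Both probes were not well above background in CRC male 1 and CRC + E171 male 2 of 2 days, and 1 of them in CRC + E171 male 2 of 7 days, so the lowest levels are bounds and the size of the differences is uncertain. The call after 2 days lay close to the threshold and was lost when any 1 of 24 of the 31 arrays was left out. The differences without 1 array ran from −3.62 without CRC male 2 to −1.86 without CRC male 1 of 2 days (adjusted p = 0.316), with the highest adjusted p, 0.356, without CRC + E171 male 2 (−2.26). The call after 7 days was lost without CRC female 1 (−2.42, adjusted p = 0.0789), CRC + E171 male 2 (−2.24, adjusted p = 0.0941) or CRC + E171 female 2 of 7 days (−2.56, adjusted p = 0.0545), and with array weights (−2.61, adjusted p = 0.0554). Without both CRC males of 7 days, the difference in CRC + E171 alone was −3.11 (unadjusted p = 0.00124, adjusted p = 0.681). Without the array of CRC after 14 days whose Xist level matched females, the adjusted p was 0.0536 after 2 days and 0.0209 after 7 days, where that array bears only on the estimated spread, and no member was called after 14 days.

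Leaving out the CRC array of 14 days whose Xist level matched females gave Lgr5 a sex difference of −1.43 over all days. It was not called. Of the 31 arrays left out singly, 6 brought the adjusted p of the Lgr5 difference under 0.05. These were CRC male 1 (−1.18, adjusted p = 0.032) and male 2 (−1.62, adjusted p = 0.00223) and CRC + E171 male 1 (−1.52, adjusted p = 0.0483) of 2 days, CRC male 2 of 7 days (−1.32, adjusted p = 0.0435), CRC + E171 male 1 of 14 days (−1.36, adjusted p = 0.0241) and CRC male 1 of 21 days (−1.65, adjusted p = 0.025). Marker lists moved with sex as well. After 2 days the median of 20 proliferation markers was −0.90 to 0.43 in males and 0.62 to 0.88 in females, and that of 10 T cell markers −1.99 to 0.99 and 0.48 to 1.98. The macrophage median was −0.66 to −0.03 in males and 0.15 to 0.39 in females, and the endothelium median 0.01 to 0.09 and −0.52 to −0.41. The proliferation, macrophage and endothelium medians did not overlap between sexes after 2 days, where 14.2% of single genes did not. The pan-epithelial median was 0.00 to 0.50 and 0.07 to 0.30. After 7 days the proliferation median was −0.44 to 0.52 in males and −0.47 to 0.07 in females, the pan-epithelial median −3.68 to 0.30 and −0.06 to 0.22, and the neutrophil median −1.05 to 5.38 and −0.90 to −0.20. The part of these in the Lgr5 difference was not tested.

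Ascl2 after 7 days stood at −3.32, −4.15, −2.24 and −4.13 in males and at −1.60, −1.59, −1.85 and −2.38 in females, a difference of −1.61 (unadjusted p = 0.00522, adjusted p = 0.0770). Without CRC + E171 male 1 of 7 days it was −2.08 (adjusted p = 0.0344), and without both CRC males −1.07 (unadjusted p = 0.153). After 2 days it stood at −3.77, −1.79, −3.44 and −5.38 in males and at −2.09, −2.23, −2.17 and −2.20 in females, a difference of −1.42 (unadjusted p = 0.0115, adjusted p = 0.225). The females lay close together and CRC male 2 lay above them. The difference lay in the brighter probe, which gave −2.50 after 2 days (adjusted p = 0.147) and −2.84 after 7 days (adjusted p = 0.0414), against −0.34 and −0.37 for the dimmer, which was not well above background on 7 arrays.

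Axin2 after 7 days stood at −5.04, −5.91, −3.22 and −5.42 in males and at −3.50, −3.57, −2.93 and −3.35 in females, a difference of −1.56 (unadjusted p = 0.0155, adjusted p = 0.142). 1 of its 2 probes was not well above background in CRC male 2 and CRC + E171 male 2 of 7 days, so the size is uncertain. The difference was −1.18 without both CRC males (unadjusted p = 0.175). After 2 days the difference was −0.88 (unadjusted p = 0.147). In all 8 slide pairs of these days the male was lower (−2.34 to −0.28), and after 14 and 21 days in 2 of 7.

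After 2 days further members passed the unadjusted thresholds. Cd44 stood at −1.87, −1.13, −1.35 and −1.57 in males and at −0.52, −0.39, −0.59 and −0.48 in females, a difference of −0.99 (unadjusted p = 0.0199, adjusted p = 0.285). Smoc2 differed by −0.83 (unadjusted p = 0.00973, adjusted p = 0.212) and Myc by −0.71 (unadjusted p = 0.0160, adjusted p = 0.259). With Lgr5 and Ascl2 this made 5 of 10 members at a fold of 1.5 and an unadjusted p under 0.05 after 2 days, where 8.43% of genes were called in that way. After 7 days there were 3 of 10, Lgr5, Ascl2 and Axin2, where 14.3% were, and after 14 and 21 days none, where 3.18% and 2.88% were. At the adjusted threshold none was called after 14 and 21 days either, against 0.0101% and 0.0354% of genes. The median male minus female difference of the 10 genes was −0.77 after 2, −0.15 after 7, 0.03 after 14 and 0.20 after 21 days, beside 0.04, −0.03, −0.02 and −0.04 over all genes.

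To see which members varied together between mice of a group, each gene's group mean was subtracted and the 45 pairs of members were correlated over the 31 arrays, with 100000 permutations and p adjusted over the pairs. Lgr5 and Ascl2 went together at r = 0.81 (permutation p = 0.00015, adjusted p = 0.00337; Spearman's rho = 0.73, permutation p = 0.00082), and r was 0.74 without the 2 arrays farthest from the median of Lgr5. Ascl2 and Axin2 gave r = 0.70 (permutation p = 0.00012, adjusted p = 0.00337; rho = 0.76, permutation p = 0.00004; 0.67 without 2 arrays). Lgr5 and Axin2 gave r = 0.63 (permutation p = 0.00052, adjusted p = 0.00686; rho = 0.63, permutation p = 0.00143; 0.61 without 2 arrays). The stem cell genes Lgr5 and Ascl2 and the feedback gene Axin2 thus moved together between mice of a group. Each group held males and females and sex was not subtracted, so differences between the sexes enter these r. The part of sex in them was not tested.

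Within females r was 0.59, 0.60 and 0.48 for these 3 pairs and within males 0.81, 0.76 and 0.72, without a test. The group means subtracted were those over both sexes, so a sex difference that varied between groups still enters these r. Over scan days 1, 2 and 3 it was 0.86, 0.65 and 0.93 for Lgr5 and Ascl2, 0.66, 0.64 and 0.85 for Ascl2 and Axin2, and 0.43, 0.69 and 0.83 for Lgr5 and Axin2. Sox9 and Myc went in opposite directions, at r = −0.59 (permutation p = 0.00061, adjusted p = 0.00686; rho = −0.68, permutation p = 0.00030; −0.62 without 2 arrays). Their r was −0.60 in females, −0.59 in males and −0.79, −0.55 and −0.72 over the scan days. Cd44 and Myc gave r = 0.58 (permutation p = 0.00455, adjusted p = 0.0410), with a Spearman adjusted p of 0.0742 and r = 0.45 without 2 arrays. The other 40 pairs had adjusted p above 0.05.

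**Figure D5:**
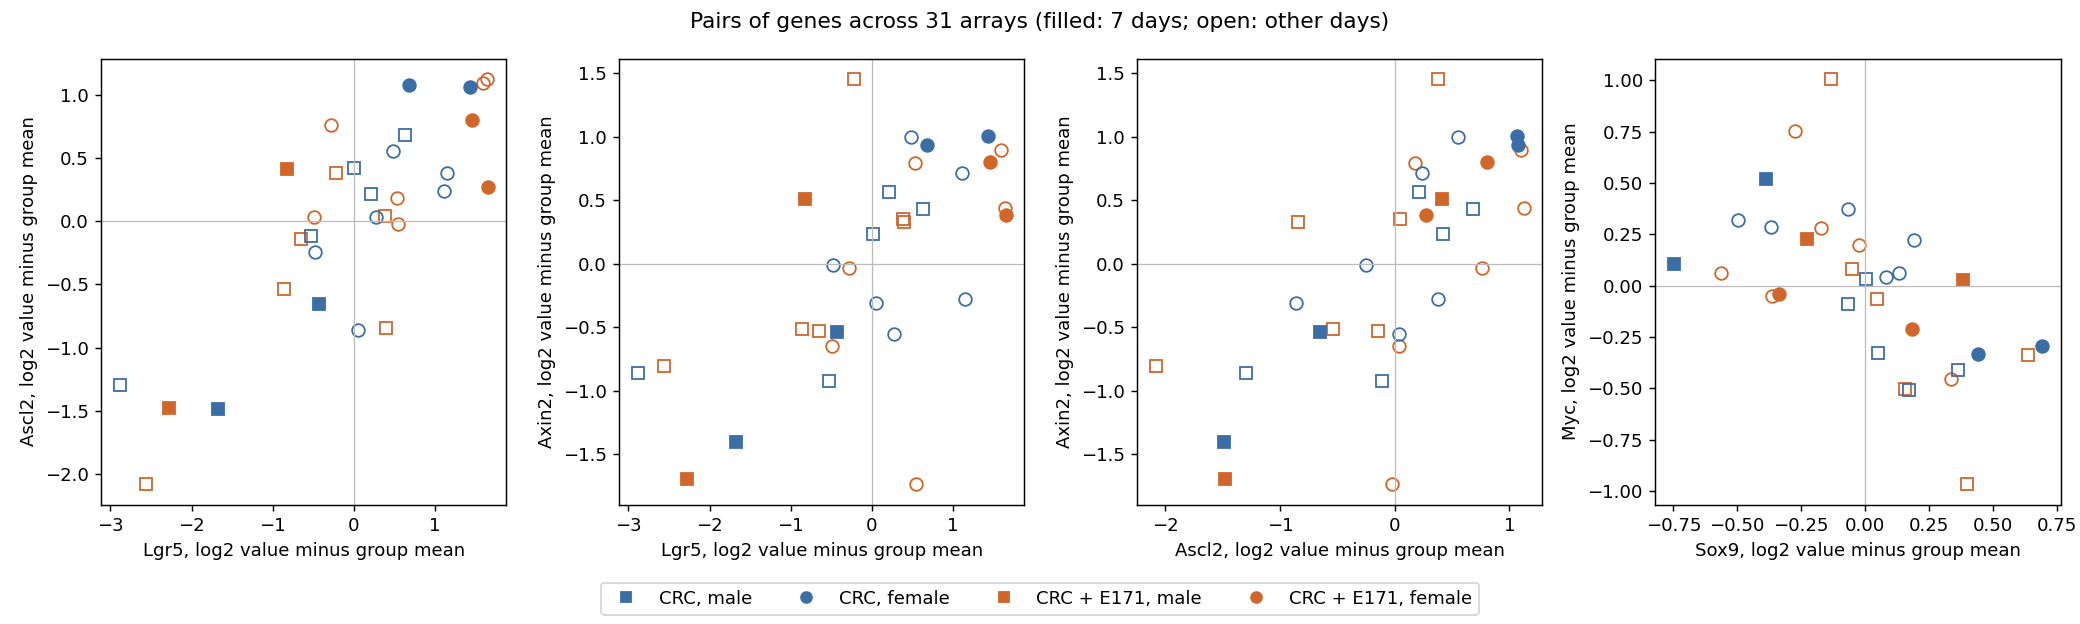
Levels of the 31 arrays after subtraction of the group mean (log2, both axes) for Lgr5 and Ascl2, Lgr5 and Axin2, Ascl2 and Axin2, and Sox9 and Myc, with arrays of 7 days filled. The first 3 pairs rise together (r = 0.81, 0.63 and 0.70) and the last falls (r = −0.59).

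The genes whose levels over the 31 arrays were most like each member were taken by Pearson's r over 19740 genes, without subtracting group means. For Lgr5 they were Cdca7 (r = 0.88), Ascl2 (0.81) and Gabrp (0.81). For Ascl2 they were Lgr5 (0.81), Cdca7 (0.81) and Hmga2 (0.80). Lgr5 and Ascl2 thus had each other and Cdca7, a chromatin factor that acts with the remodeller Hells, among their nearest profiles. Cdca7 after 2 days lay between −1.65 and −0.02 in males and −0.03 and 0.55 in females, on the log2 scale relative to the array's 75th percentile.

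Among the nearest profiles of Axin2 were Alms1 (r = 0.76) and Bzw2 (0.75), and those of Ephb2 were Dlg5 (0.74), Mroh3 (0.73) and Pkhd1 (0.68). Those of Sox9 were Mecom (0.87), Mgat5 (0.83) and Diaph1 (0.82). Smoc2 was nearest to Nxt1 (0.82), Tnfaip6 (0.81) and Dimt1 (0.81), and Cd44 to Nup155 (0.91), the interferon-inducible Ifi202b (0.87) and Plekhs1 (0.86). Myc was nearest to Aaas (0.87), Wdr77 (0.82) and Noc4l (0.81), of which the last takes part in making ribosomes. Nkd1 was nearest to 4930429F24Rik (0.93), Ldb2 (0.92), a LIM domain cofactor, and Mrgprf (0.92). The Ephb3 probe was nearest to probes of Gm13562 (0.95), Ms4a4c (0.94) and Btn1a1 (0.94).

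Other genes of the pathway were read from 5 lists with 97 measured genes. After 7 days, 9 of the 97 were called higher and 9 lower with E171 at the unadjusted thresholds, 18.6% of the lists where 12.4% of all genes were called. When both CRC males were left out, 0 of 97 were called, where 2.30% of all genes were. After 2 days 0 were called (1.72% of all genes), after 14 days 0 higher and 4 lower, 4.12% against 6.34%, and after 21 days 0 higher and 1 lower, 1.03% against 2.67%. None passed with adjusted p on any day (limma). Of 19 further crypt base genes 3 were called higher and 0 lower after 7 days, with a median of 0.15 beside −0.01 over all genes. Agr3, of the protein disulphide isomerase family, differed by 2.19 (unadjusted p = 0.0207), Msi1, an RNA-binding stem cell factor, by 1.81 and Rnf43, which removes Wnt receptors from the cell surface, by 1.17. The same genes stood at 0.01, 0.24 and −0.01 without both CRC males. Of 24 Wnt feedback and target genes 1 was higher and 2 lower, Fgf9 at 1.03 and the secreted Wnt antagonists Sfrp5 at −1.52 and Sfrp1 at −1.11. With both CRC males of 7 days left out, these stood at 0.20, −0.18 and −0.54.

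Of 23 genes of Wnt transduction 3 were called higher and 3 lower after 7 days (median 0.02). For these and the next 2 lists, 12.4% of all genes were called, with a median of −0.01 over all genes. Higher were the R-spondin receptor Lgr4 at 1.15 (unadjusted p = 0.00451), the transcription factor Tcf7l2 at 1.01 and Bcl9, a beta-catenin cofactor, at 0.67. Lower were the stromal ligands Rspo1 at −1.73 and Rspo3 at −1.33 and the kinase Csnk1e at −0.71. Of 18 Eph receptors and ephrins 2 were higher, Efna1 at 1.06 and Efnb1 at 0.71, and 0 lower. Of 13 genes of regenerating epithelium 0 were higher and 4 lower, with a median of −1.06 beside −0.01 over all genes. Among the 4 were the growth factor Ereg at −1.97, the urokinase receptor Plaur at −1.39 and the Yap target Ccn2 at −1.36. Without both CRC males Lgr4 stood at 0.30, Csnk1e at −0.31, Efnb1 at −0.09, Tcf7l2 at −0.10, Bcl9 at 0.56, Rspo1 at −0.23, Rspo3 at −0.18, Efna1 at 0.39, Ereg at 0.46, Plaur at 0.24 and Ccn2 at −1.0 (unadjusted p = 0.0721), and the lowest unadjusted p among the genes named here was that of Ccn2.

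On later days the Wnt transcription factors Lef1, which lymphocytes also express, and Tcf7l1 were called lower with E171 at the unadjusted thresholds only. Lef1 stood at −1.61 after 14 days and −1.69 after 21 days, the latter without overlap, and Tcf7l1 at −1.41 after 14 days (adjusted p = 0.576 for both after 14 days and 0.854 for Lef1 after 21). Lymphocyte markers are given beside these, with ranges that overlapped between the groups. The group median of the T cell list was 0.01 in CRC (range −1.16 to 1.31) and −0.43 in CRC + E171 (−0.89 to −0.35) after 14 days, and −0.09 (−1.58 to 1.41) and −1.04 (−1.47 to −0.65) after 21 days. That of the B cell list was 1.02 (−0.58 to 2.15) and −0.36 (−1.0 to 0.29) after 14 days, and 0.49 (−2.93 to 2.10) and −1.03 (−2.18 to 0.23) after 21 days, and the part of lymphocytes was not tested. Clu, a gene of revival stem cells, was at −1.46 and Ccn2 at −1.34 after 14 days. Other marker medians differed between CRC and CRC + E171 on that day too, with ranges that overlapped. They were 0.78 and −0.57 for neutrophil, 0.24 and −0.24 for fibroblast, 0.27 and −0.24 for endothelium and 0.06 and 0.21 for pan-epithelial markers. Their part was not tested. Over the mean of the 4 days 0 of 97 were called higher and 3 lower, 3.09% where 1.79% of all genes were called. These were Lef1 at −0.98, Tcf7, a T cell factor, at −0.77 and Ccn2 at −0.64, with adjusted p of 0.496 to 0.499.

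Between sexes after 7 days, 12 of the 97 were higher and 12 lower in males at the unadjusted thresholds, and 8 passed with adjusted p. These were 24.7% and 8.25% of the lists, where 14.3% and 4.67% of all genes were called. In CRC + E171 alone, which leaves out both CRC males, 3 were higher and 4 lower and 0 passed with adjusted p, where 2.88% and 0% of all genes did. Lower in males were Agr3 at −2.74 (limma, adjusted p = 0.0313), the potassium channel subunit Kcne3 at −2.24 (adjusted p = 0.0291), Rnf43 at −1.48 (adjusted p = 0.0104) and Tcf7l2 at −0.91 (adjusted p = 0.0416). Higher were Ereg at 2.74 (adjusted p = 0.0149), the alarmin Il33 at 2.12 (adjusted p = 0.0428) and Plaur at 1.83 (adjusted p = 0.0171). Without both CRC males the values were −1.12 for Agr3, −0.67 for Kcne3, −0.60 for Rnf43, 0.42 for Tcf7l2, 0.60 for Ereg, 0.02 for Il33 and 0.41 for Plaur, each with adjusted p = 1. After 2 days 1 was higher and 4 lower at the unadjusted thresholds, 5.15% where 8.43% of all genes were, and 0 with adjusted p.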

How the data were processed

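The authors hybridised labelled cRNA to Agilent one-colour arrays and deposited Feature Extraction (10.7.3.1) output, whose processed signals are background-corrected intensity values on a linear scale. The authors' deposited matrix of normalized log2 values served as an alternative. From the intensities, log2(signal) minus log2 of each array's 75th percentile was computed, and outlier spots were left out. A probe was kept if in at least 1 group 60% of arrays exceeded background and the mean log2 intensity was at least 4, and probes of a gene were averaged. limma 3.58.1 (R 4.3.3) was fitted over 8 groups, and over 16 groups of exposure, day and sex for sex, with Benjamini-Hochberg adjustment over 19797 genes. Exact permutation tests were two-sided. The script was tested on simulated data. Members and lists were chosen with earlier results of these data known. Named genes were the members, the list genes called with the largest differences (up to 3 per direction) and the 3 most like each member, of which 1 is not reported here. Arrays are 1 mouse each. E171 was compared across slides and array positions, and the array position of each exposure was always the same, so position and exposure cannot be told apart, and males and females likewise lay in different array rows throughout.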

Additional observations from a re-analysis of the deposited data

Results flagged for a closer look

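In 3 of 70 sets of arrays tested, 1 array stood far from the others of its group, where chance gives about 1 in 20. Lgr5 in CRC male 1 of 2 days was −6.62, with the next array at −3.11. Axin2 in CRC + E171 male 2 of 7 days was −5.42, with the next at −3.35. The Ephb3 probe in CRC male 1 of 7 days was 3.0, with the next at 2.61.

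Differences that themselves differed between groups were marked at unadjusted p, and none of them passed with p adjusted over all genes. The difference between males and females changed with the day for Lgr5 (F test, unadjusted p = 0.00314), Smoc2 (unadjusted p = 0.0190), Myc (unadjusted p = 0.0295) and Sox9 (unadjusted p = 0.0462). The E171 difference changed with the day for Sox9 (F test, unadjusted p = 0.0175) and Smoc2 (unadjusted p = 0.0259). The E171 difference after 7 days differed between males and females for Cd44 (unadjusted p = 0.00272), Sox9 (unadjusted p = 0.0122) and Smoc2 (unadjusted p = 0.0135).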

How the results depend on the processing

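Of 497 values computed for the members under alternatives other than leaving out 1 array, 442 kept their direction and side of the threshold or, for counts, stayed within 1.5 times the reported count, 55 did not and none reversed. Members called for E171 after 2 days were 2 with the highest probe or array weights, 3 of all probes taken singly and 0 with only the compared arrays, scan day as a block, an adjusted threshold or a log2 difference of 1.5. After 7 days they were 0 with an adjusted threshold or a log2 difference of 1.5. After 14 days they were 1 with only the compared arrays (Ascl2) and 2 probes singly, after 21 days 1 with the authors' values (the Ephb3 probe), and over the mean of days 1 with the highest probe and 1 probe singly. The change of the E171 difference with the day gave 2 at an unadjusted threshold. At a fold of 1.5 and an unadjusted p under 0.05, 14 against 2, 21 against 7 and 21 against 14 days gave 1 each (Cd44), the last also with array weights, and the F tests within CRC and within CRC + E171 gave 1 each unadjusted. For sex over all days there was 1 with normexp or with probes taken singly and 2 at those thresholds. For sex after 2 days there were 0 with the authors' values, no filter, the scan day or slide as a fixed block or probes singly, 3 with array weights and 5 at those thresholds. For sex after 7 days there were 2 with normexp, the highest probe, the slide as a fixed block or probes singly, 0 with array weights or without both CRC males of 7 days, and 3 at those thresholds. The change of the sex difference with the day gave 4 unadjusted. The share of all genes called moved too. For E171 after 2 days it was 1.78% with the highest probe, 4.43% with array weights, 2.82% with only the compared arrays and 1.03% with scan day as a block, after 14 days 7.32% with only the compared arrays, after 21 days 3.52% with the authors' values, and over the mean of days 2.08% with the highest probe. For 21 against 14 days it was 1.94% with array weights and for sex over all days 0.157% with normexp. For sex after 2 days it was 4.16% with array weights and 0.148% to 0.455% under the settings that gave 0, and after 7 days 4.76% to 5.21% under those that gave 2, 3.86% with array weights and 0% without both CRC males. With probes taken singly, 2.74%, 6.68% and 2.0% of probes were called for E171 after 2 days, after 14 days and over the mean of days, and 0.129%, 0.161% and 2.92% for sex over all days, after 2 and after 7 days. The cause of these shifts was not tested. Of the 45 pairs of members, 5 passed, and 4 passed under each alternative.

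Leaving out 1 array at a time gave 0 to 2 members for E171 after 2 days, 2 to 3 after 7 days and 0 to 1 after 14 days, 0 to 1 for sex over all days, 0 to 2 for sex after 2 days and after 7 days, and 0 to 1 for the change of the sex difference with the day, where Lgr5 passed without CRC male 2 of 2 days and Myc without CRC + E171 male 1 of 14 days. Settings chosen after the data were seen were the log2 difference of 1.5, the fits without both CRC males of 7 days, the split of E171 by sex after 7 days and the split of sex by day.

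With sex and replicate number as a replicate block, members called for E171 remained 1, 2, 0 and 0 after 2, 7, 14 and 21 days, sex after 2 days gave 0 (Lgr5 −2.74, adjusted p = 0.0617) and sex after 7 days 1 (adjusted p = 0.0194), and no other count moved. Arrays of the same sex and number deviated with a mean r of 0.0618 (−0.41 to 0.625), against −0.0191 for other pairs (−0.629 to 0.533). Whether the numbers pair the mice was not tested beyond these values.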
